A study of Mus musculus with 117 samples.

Results

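Hepatocytes of C57BL/6J and 129S1/SvImJ mice were compared chromatin state by chromatin state along chromosomes 1 to 19. Each strain's deposited segmentation gives every 200-bp bin 1 of 14 states, and the members of the comparison are all 12313718 autosomal bins of the 13168874 bins on the autosomes and X. The pair rests on 26 of the 117 ChIP-seq libraries of the study, 13 per strain, from livers of female mice 12 weeks old. In each strain, 3 mice were profiled for H3K4me1, H3K4me3, H3K27ac and H3K27me3, and 1 input library was made. Both are inbred laboratory strains without a transgene or treatment in the labels, and the other 7 strains, WSB/EiJ, PWK/PhJ and CAST/EiJ of wild origin and NZO/HlLtJ, NOD/ShiLtJ, DBA/2J and A/J, serve here only as background.

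Each segmentation pools its strain's mice, so no spread between mice can be given and no difference below has a test. Read depth is unknown. Values are descriptions of 2 segmentations, set beside the same value in the other 35 pairs of strains or in the 14 pairs that join C57BL/6J or 129S1/SvImJ with another strain. States 1 to 4 were grouped because they cover hepatocyte genes in these data. Their presence at hepatocyte markers is therefore built in and does not check the hepatocyte label. Markers of cell types were scored over the bins within 1 kb to each side of their starts. All 7 hepatocyte markers with a RefSeq start, among them Alb and Hnf4a, had at least 90.9% of these bins in states 1 to 4 in both strains. Of 6 Kupffer cell and leukocyte markers, 5 were at 0 in C57BL/6J and 6 in 129S1/SvImJ. Of 6 endothelial and of 6 stellate or bile duct markers, 4 each were at 0 in both strains. The others were not: Stab1 was at 100% in both strains, and Reln at 72.7% in C57BL/6J and 81.8% in 129S1/SvImJ. Clec4g had 18.2% and 27.3%, and Spp1 45.5% and 9.09%.

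A chromatin state is a recurring combination of histone marks, and a segmentation labels each stretch of the genome with the state its marks resemble most. H3K4me3 marks gene starts, H3K4me1 marks enhancers and the flanks of starts, H3K27ac marks active elements of both kinds, and H3K27me3 marks genes held silent by Polycomb proteins. In hepatocytes these marks set apart the genes for plasma proteins, bile, lipid and drug metabolism from silent genes of other tissues. Inbred strains carry fixed sequence differences, so their hepatocytes show which stretches differ in state between genomes. The deposited files do not say which marks define a state, and state numbers are used here as names. States 1 to 4 are grouped because they cover the spans of hepatocyte genes, and states 13 and 14 because they cover most of the genome.

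The strains had the same state in 88.1% of bins and differed in 1465017 bins, or 11.9% of the 12313718 compared, which sum to 293 Mb. In the other 35 pairs the percentage differing ran from 11.9% to 21.1%, with a median of 14.7%. Agreement beyond what the state frequencies alone give, measured by kappa, was 0.699, above every other pair (0.474 to 0.683). The pair was chosen as the most similar by this value, so its rank by kappa is a description and not a finding. Low values of the related measures of difference given below follow in part from that choice. By plain agreement C57BL/6J and DBA/2J came ahead, at 88.15% of bins against 88.10% for C57BL/6J and 129S1/SvImJ. Most agreement lay in the 8901554 bins that were state 14 in both strains. Among the 3412164 bins outside state 14 in at least 1 of the strains, here called marked bins, 42.9% differed, the lowest of the 36 pairs (44.9% to 64.4% in the others).

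States differed widely in how often they recurred. Of the C57BL/6J bins in state 1, 89.7% were state 1 in 129S1/SvImJ, and for state 3 the value was 81.2%. State 2 recurred in 66.9%, state 4 in 63.3% and state 6 in 59.8%. State 7, the least recurrent, recurred in 27.6% of its 5587 bins.

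**Figure D1:**
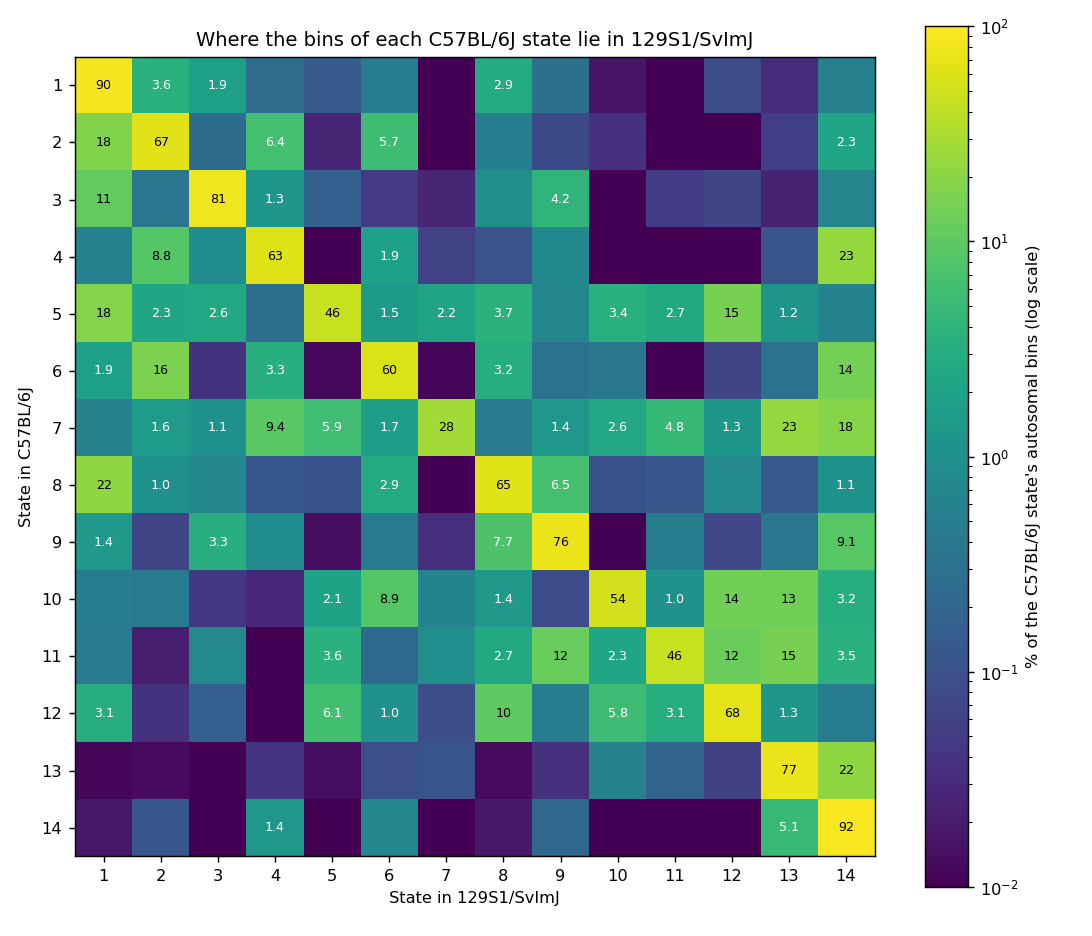
Percentage of the autosomal bins of each C57BL/6J state (rows) that lie in each 129S1/SvImJ state (columns), on a log colour scale with numbers printed from 1% upward. The diagonal is the recurrence, from 27.6% in state 7 to 92.4% in state 14, and the heaviest cells off the diagonal are 4 to 14 (23.4%), 7 to 13 (23.3%), 8 to 1 (21.8%) and 13 to 14 (21.7%).

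Of all differing bins, 50.7% were state 13 in one strain and state 14 in the other (47.6% to 64.0% in the other pairs). Exchanges of states 4 and 14 followed at 15.4%, of 6 and 14 at 7.52%, of 1 and 2 at 4.72%, and of 2 and 6 at 4.54%. At 6.69% of differing bins each strain's state lay within 1 bin in the other strain, and at 13.3% within 2 bins. Borders that moved farther are not counted by these shares. Runs of differing bins had a median length of 400 bp, and 32.2% of runs were 1 bin long. The share within 1 bin was the highest of the 36 pairs (2.91% to 6.30% in the others).

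The exchanges ran unevenly in direction. State 13 in 129S1/SvImJ with state 14 in C57BL/6J held 490748 bins, and the reverse 251316, so 66.1% of these exchanges had state 13 in 129S1/SvImJ. Bins that were state 2 in C57BL/6J and state 1 in 129S1/SvImJ numbered 58720, against 10424 the other way, a ratio of 5.63. State 6 in C57BL/6J with state 2 in 129S1/SvImJ held 47637 bins against 18936, and state 14 with state 9 held 21901 against 6147. Every autosome showed the same tilt in 1 and 2 (79.5% to 88.0% with state 1 in 129S1/SvImJ) and in 13 and 14 (56.2% to 75.2% with state 13 in 129S1/SvImJ). In total, state 1 covered 2.33% of bins in C57BL/6J and 2.82% in 129S1/SvImJ, and state 13 covered 9.40% and 11.3%. Among the 9 strains, 129S1/SvImJ ranked the highest in state 1 and C57BL/6J the lowest in state 13. Both ranks were near ties, with NZO/HlLtJ at 2.81% in state 1 and DBA/2J at 9.44% in state 13. The number of reads behind each strain is unknown, so a difference in depth between the strains and a difference in marks cannot be told apart here.

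The other 7 strains were used to place each difference. At 32.5% of differing bins at least 5 of the 7 had the state of C57BL/6J, at 26.9% at least 5 had that of 129S1/SvImJ, and at 40.6% neither strain had such a majority. All 7 sided with C57BL/6J at 104835 bins (7.16%) and with 129S1/SvImJ at 79623 bins (5.43%). DBA/2J had the C57BL/6J state most often, at 50.4% of differing bins, and A/J the 129S1/SvImJ state, at 45.8%. State 4 was seldom shared: where C57BL/6J had state 4 and 129S1/SvImJ state 14, at least 5 others had state 14 at 64.6% of bins and state 4 at 5.55%. In the reverse exchange the values were 61.0% and 6.92%. State 9 was more widely shared. Where 129S1/SvImJ had state 9 and C57BL/6J state 14, at least 5 others had state 9 at 41.1% of bins and state 14 at 15.9%.

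Differences were not spread evenly around genes. The bin at the RefSeq start of a protein-coding gene differed at 2616 of 16457 genes (15.9%). The percentage was higher on both sides, at 21.7% at 2000 bp upstream and 23.6% at 3600 bp into the gene, and lower again 10 kb upstream (15.5%) and 10 kb into the gene (16%). The mean of the 14 other pairs had the same shape at a higher level, at 18.6% at the start and 25.9% and 28.5% at those distances. State 3 mostly recurred at starts: 6408 of the 6775 start bins in state 3 in C57BL/6J were state 3 in 129S1/SvImJ (94.6%). Of marked bins within 1 kb of a start 23.6% differed, against 41.5% of those elsewhere in genes and 47.2% of those over 5 kb from any protein-coding gene.

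**Figure D2:**
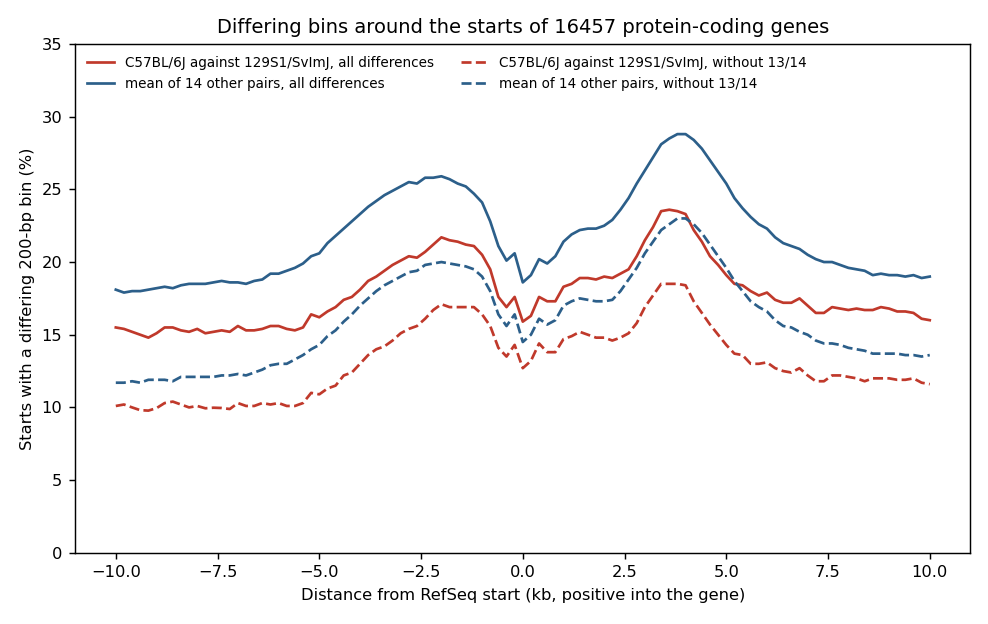
Percentage of 16457 RefSeq starts with a differing bin, by distance from the start in kb, for C57BL/6J against 129S1/SvImJ (red) and the mean of 14 other pairs (blue), with all differences (solid) or without 13/14 exchanges (dashed). Red lies below blue throughout, and every line dips at the start, between a rise 2000 bp upstream and a peak past 3 kb into the gene.

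A few starts went from states 1 to 4 in one strain to states 13 or 14 in the other. There were 96 such starts with C57BL/6J in states 1 to 4 (0.583% of all starts) and 62 with 129S1/SvImJ (0.377%). Most were exchanges of states 4 and 14, 76 of the 96 and 52 of the 62. Of the 96, 21 were in states 1 to 4 in none of the other 7 strains, and 4 were so in all 7: Cyp2b9, Cyp2b13, Crybb1 and the predicted gene Gm45521. Of the 62, 14 were so in none and 0 in all 7. The 250 bases upstream of 5 such starts are given below as examples from genes that also differed by over 50 points along their spans in states 1 to 4. Cphx2, 2310061N02Rik, Olfr541, Gm40595 and Gm40378 met the same description and are not shown, and the choice was made after the values were seen. They come from RefSeq on GRCm38.p6, 5′ to 3′ on the gene's strand. Both strands were searched for the TATA box as TATAAA, for the CCAAT box by those letters, and for the GC box as GGGCGG. The forkhead motif was searched as TGTTTAC, that of C/EBP factors as TTGCNNAA, that of STAT factors as TTCNNNGAA and that of HNF4 as CAAAGTCCA, and the HNF1 motif is given by name alone. Capitals mark matches, all of them here to the C/EBP letters.

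Cyp2b13: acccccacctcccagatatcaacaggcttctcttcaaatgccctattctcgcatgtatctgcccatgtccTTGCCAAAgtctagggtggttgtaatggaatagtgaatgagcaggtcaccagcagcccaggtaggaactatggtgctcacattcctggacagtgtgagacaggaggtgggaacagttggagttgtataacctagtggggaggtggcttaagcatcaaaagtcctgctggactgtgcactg
Cyp2b9: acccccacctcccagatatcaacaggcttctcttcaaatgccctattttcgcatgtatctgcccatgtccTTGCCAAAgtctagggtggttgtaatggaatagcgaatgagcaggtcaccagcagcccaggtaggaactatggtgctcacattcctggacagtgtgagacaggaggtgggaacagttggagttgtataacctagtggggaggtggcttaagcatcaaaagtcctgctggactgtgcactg
Apol7c: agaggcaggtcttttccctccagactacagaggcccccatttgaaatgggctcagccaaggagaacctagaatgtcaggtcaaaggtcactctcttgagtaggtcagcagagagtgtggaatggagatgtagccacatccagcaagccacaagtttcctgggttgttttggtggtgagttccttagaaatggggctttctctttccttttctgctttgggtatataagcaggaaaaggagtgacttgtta
Cryaa: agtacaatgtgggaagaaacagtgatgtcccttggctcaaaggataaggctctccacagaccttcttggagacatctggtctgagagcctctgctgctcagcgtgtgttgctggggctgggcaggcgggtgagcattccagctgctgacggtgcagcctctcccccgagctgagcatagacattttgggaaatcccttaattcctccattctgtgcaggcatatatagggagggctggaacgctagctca
Tas1r3: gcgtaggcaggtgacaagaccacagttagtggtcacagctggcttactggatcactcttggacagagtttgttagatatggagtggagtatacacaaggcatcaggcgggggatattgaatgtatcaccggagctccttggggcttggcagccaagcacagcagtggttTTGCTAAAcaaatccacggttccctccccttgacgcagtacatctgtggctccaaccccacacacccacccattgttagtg

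These lie at chr7:26061245-26061494 and chr7:26173159-26173408 on the plus strand, chr15:77533316-77533565 on the minus strand, chr17:31677681-31677930 on the plus strand and chr4:155863354-155863603 on the minus strand. The upstream sequences of Cyp2b13 and Cyp2b9 were identical at 248 of 250 bases, and both hold the C/EBP letters 180 bases before the start. Tas1r3 holds them 81 bases before its start. The letters occur in 9.27% of the 250-base windows before all 16457 starts, and the others in 12.5% (TATA box), 36.3% (CCAAT box), 43.6% (GC box), 2.57% (forkhead), 6.74% (STAT), 0.377% (HNF4) and 0.407% (HNF1). Starts of the 2 switching groups had a median of 3.00 CpG dinucleotides (96 starts) and 4.00 (62 starts) in these 250 bases, against 10 over all starts and 18 over starts in state 3 in both strains.

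Differing bins gathered into local clusters. A cluster is a run of adjoining 10-kb windows in each of which at least 50% of bins differ. Of 246266 windows, 8260 passed (3.35%) and formed 6764 clusters, fewer than in any other pair (7186 to 20350). They covered 82.6 Mb and held 17.2% of the differing bins. A single window made up 5747 clusters, 44 reached 50 kb, and the longest spanned 110 kb. Without 13/14 exchanges 2929 clusters remained, 78.0% of which touched a protein-coding gene, 2069 genes in all. Of all 6764 clusters 58.0% touched one. The share of all 10-kb windows that touch a gene was not computed, so no preference for genes can be read from these values. Among these 2929, 1962 had the larger share in states 1 to 4 in 129S1/SvImJ and 899 in C57BL/6J. In 314 all 7 other strains were closer to C57BL/6J, and in 202 closer to 129S1/SvImJ.

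Among the 20 longest clusters, those with the highest percentage of differing bins lay over a pair of cytochrome P450 genes on chromosome 7. Cyp2b9 and Cyp2b13 encode drug- and steroid-oxidising enzymes that are far higher in female than in male mouse liver. One cluster covered Cyp2b9 (chr7:26160001-26230000), where 94.3% of bins differed, and another Cyp2b13 (chr7:26050001-26110000), where 97.0% did. Over the 180 kb from the first to the last, 129S1/SvImJ was in state 14 in 97.9% of bins and in states 1 to 4 in 1.56%. C57BL/6J was in state 14 in 16.2% and in states 1 to 4 in 73.4%. The other 7 strains had between 52.4% (CAST/EiJ) and 72.3% (WSB/EiJ) in states 1 to 4, so 129S1/SvImJ was the lowest of the 9. Bin by bin, 6 of the 7 matched C57BL/6J more often and 1 matched 129S1/SvImJ more often in each of the clusters. At Cyp2b13 the lowest of the 7 was CAST/EiJ, with 41.0% of bins in states 1 to 4. One unbroken state 14 segment of 71.0 kb covered the start of Cyp2b9 in 129S1/SvImJ. The files hold no read counts, so state 14 with reads and state 14 without reads cannot be told apart, and reads of these near-identical genes are hard to assign to either.

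**Figure D3:**
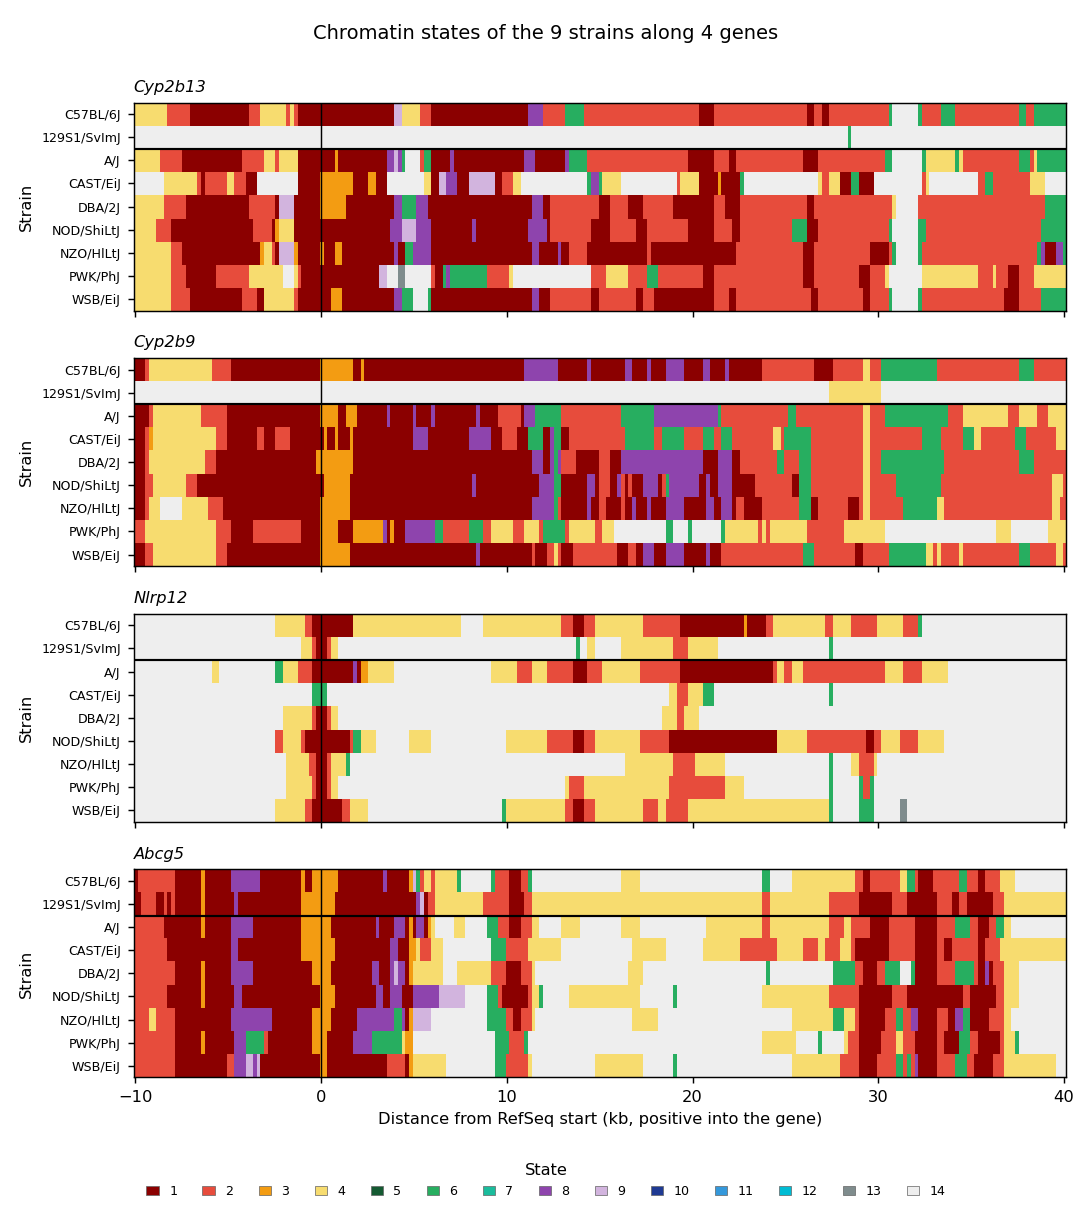
States of the 9 strains in 200-bp bins from 10 kb before to 40 kb after the RefSeq start of Cyp2b13, Cyp2b9, Nlrp12 and Abcg5, with C57BL/6J and 129S1/SvImJ in the top rows of each panel. 129S1/SvImJ is almost wholly in state 14 along both Cyp2b genes, C57BL/6J carries long state 1, 2 and 4 stretches along Nlrp12, and 129S1/SvImJ a long state 4 stretch within Abcg5.

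Of the 10 longest clusters counted without 13/14 exchanges, 6 had more of states 1 to 4 in 129S1/SvImJ. The cluster in Lnx1, an E3 ubiquitin ligase gene (chr5:74620001-74700000), had 34.8% of bins in states 1 to 4 in C57BL/6J and 82.2% in 129S1/SvImJ. At Rtn4rl1, a Nogo receptor relative (chr11:75230001-75300000), the values were 28.0% and 86.3%, at Mbnl2, a splicing regulator (chr14:120320001-120400000), 49.5% and 86.2%, and at Sntg2, a syntrophin gene (chr12:30310001-30370000), 27% and 80%. Baiap2l1 and Cables1 went the same way, with 29.7% and 76.3%, and 23% and 81.7%. The reverse was seen over Tiam2 and LOC101056300 (chr17:3450001-3510000), with 74% in C57BL/6J and 27.7% in 129S1/SvImJ. The cluster over Cyp2c69 (chr19:39840001-39900000) had 44.3% and 2.67%. Counted with 13/14 exchanges it ran to chr19:39950000, 1 of 2 clusters that reached 110 kb, and had 27.3% and 1.45%. Its commonest exchange was then state 14 in C57BL/6J with 13 in 129S1/SvImJ, at 25.6% of bins.

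In other long clusters too the commonest exchange was of states 13 and 14. The other cluster of 110 kb, at chr14:6400001-6510000 over Lamtor3-ps, Gm3594 and LOC108168187, had no bin in states 1 to 4 and 72.2% of its bins in state 14 in C57BL/6J and 13 in 129S1/SvImJ. Those at Tnfaip8l3 (chr9:54020001-54090000) and Xylt1 (chr7:117550001-117620000) had the same exchange in 66.0% and 56.6% of bins. Over Ifne, an interferon gene (chr4:88870001-88960000), and around H2-T3, a class I gene of the histocompatibility complex (chr17:36140001-36220000), the commonest exchange instead had state 13 in C57BL/6J (40% and 39% of bins).

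In 1-Mb windows the pair differed in a median of 12.3% of bins over 2454 windows, against 14.9% for the mean of the 14 other pairs. It lay below that mean in 2213 windows and above it in 185. The 4 windows with the most differences, 42.1% to 52.6%, lay side by side at chr14:3000001-7000000, an array of predicted genes. Only 0.660% to 0.900% of bins there differed other than by 13/14 exchanges. Not counting these exchanges, the window with most differences was chr19:39000001-40000000, with 11 Cyp2c genes, at 28.7% (25.2% in the 14 pairs), followed by chr7:26000001-27000000, with the Cyp2a and Cyp2b genes, at 25.8% (21.3%). Set against the mean of the other pairs, the pair was lowest at chr14:44000001-45000000, with 0.258 of it, and low at chr2:175000001-178000000, where 3 neighbouring windows of zinc finger genes had 0.425 to 0.5 of it. It was above the mean at chr6:137000001-138000000 (Eps8, Ptpro, Rerg), with 14.4% against 9.81%.

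**Figure D4:**
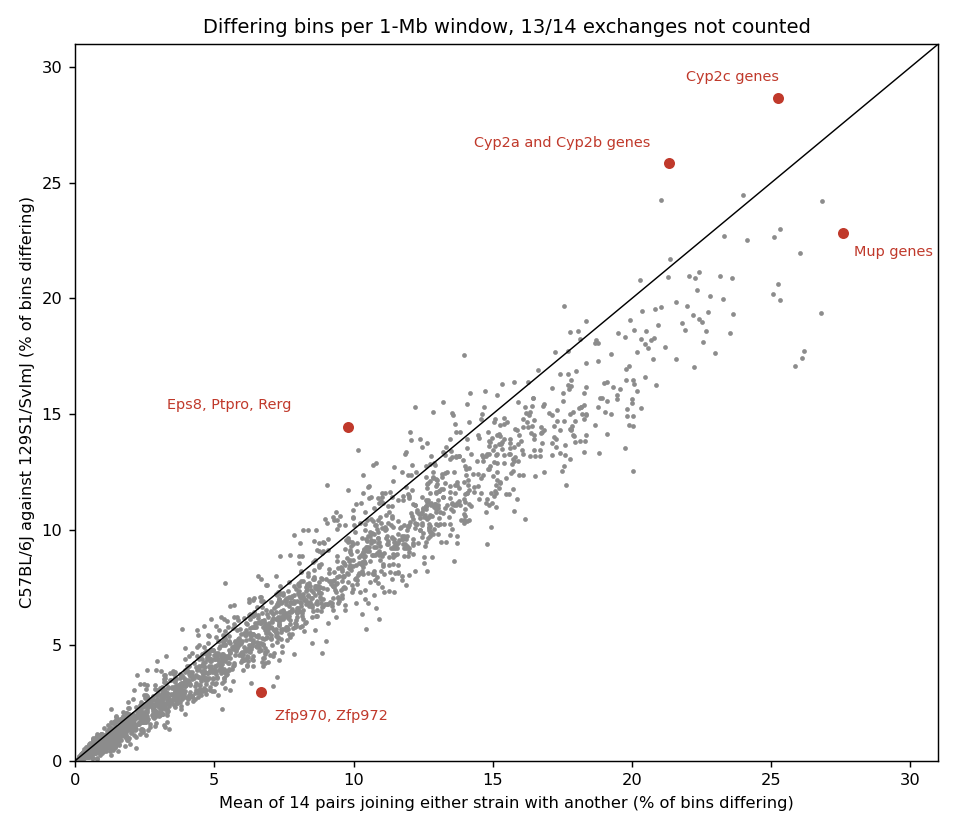
Percentage of bins differing in each of 2454 windows of 1 Mb, 13/14 exchanges not counted, in the mean of 14 pairs joining either strain with another (x axis) and in C57BL/6J against 129S1/SvImJ (y axis), with the line of equality. The median ratio of the pair to that mean is 0.847 over 1751 windows, so most points lie below the line, while the windows with the Cyp2c genes (28.7% against 25.2%) and the Cyp2a and Cyp2b genes (25.8% against 21.3%) lie above it.

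Per gene, the span with 2 kb added to each side was scored in 20464 protein-coding genes with at least 25 bins. The median gene differed in 14.3% of bins, and 1795 genes differed in none. At least 50% of bins differed in 532 genes (2.60%), which came to 338 with 5 kb added to each side, and in 245 of these 13/14 exchanges made up most of the difference. Some short genes differed wholly by such an exchange: Ccr1, a chemokine receptor, and Tas2r119, a bitter taste receptor, were state 14 in C57BL/6J at the start and 13 in 129S1/SvImJ. Olfr1337 and Vmn1r52, an olfactory and a vomeronasal receptor, were the reverse. Aadacl4fm1 and Gm3127 differed in 91.2% and 95.1% of bins in the same way, with 0 bins in states 1 to 4.

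The share of a gene's bins in states 1 to 4 was higher in 129S1/SvImJ at 7682 genes (37.5%), higher in C57BL/6J at 4903 (24%) and equal at 7879. Differences of 50 points or more were found in 22 genes toward C57BL/6J (0.108%) and 24 toward 129S1/SvImJ (0.117%). These 46 genes came to 8 when states 1 to 3 alone were counted, without state 4, and to 21 with 5 kb added to each side. Those of 30 points or more were found in 88 (0.430%) and 173 (0.845%), or 261 either way (1.28%).

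Toward C57BL/6J, Cyp2b13 had 87.7% of bins in states 1 to 4 in C57BL/6J and 0% in 129S1/SvImJ, and Cyp2b9 80.8% and 6.73%. Nlrp12, a sensor protein that dampens inflammatory signalling, had 93.8% and 21.6%. A/J and NOD/ShiLtJ were near C57BL/6J there (84.7% and 82.4%) and CAST/EiJ and DBA/2J near 129S1/SvImJ (5.11% and 14.2%). Tmem104, a transmembrane protein gene, had 80.3% and 14.7%, with DBA/2J at 84.6% and NOD/ShiLtJ at 8.46%. Derl3, which acts in the degradation of misfolded proteins of the endoplasmic reticulum, had 100% and 41.2%, and the other strains 20.6% to 58.8%, so that C57BL/6J was the strain apart. Cphx2, a homeobox gene, had 93.7% and 36.8%, with the others at 14.7% to 32.6%. Apol7c, an apolipoprotein L gene, had 66.7% and 7.94%. The other genes of this group were LOC101056300, 2310061N02Rik, BC053393, Ly6m and Mup6.

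Toward 129S1/SvImJ, Cryaa, a lens crystallin, had 0% of bins in states 1 to 4 in C57BL/6J and 85.0% in 129S1/SvImJ. Pde6h, a cone photoreceptor phosphodiesterase subunit, had 27.3% and 100%, and its neighbour Arhgdib 17.9% and 86.6%. At both genes CAST/EiJ and PWK/PhJ were low like C57BL/6J (0% to 32.5%) and the other 5 strains were at 59.8% or more. Colca2 had 11.3% and 91.9%, and no other strain passed 24.2%. Adcyap1r1, the receptor of the neuropeptide PACAP, had 0% and 62.7%, and WSB/EiJ was also at 0%. Tas1r3, a subunit of the sweet taste receptor, had 14.6% and 82.9%. Dedd2, a death effector domain gene, had 30.4% and 97.6%, with CAST/EiJ next at 76.8%. The group also held Olfr541, Gm40595, Rsc1a1, Gm6124 and Gm40378.

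**Figure D5:**
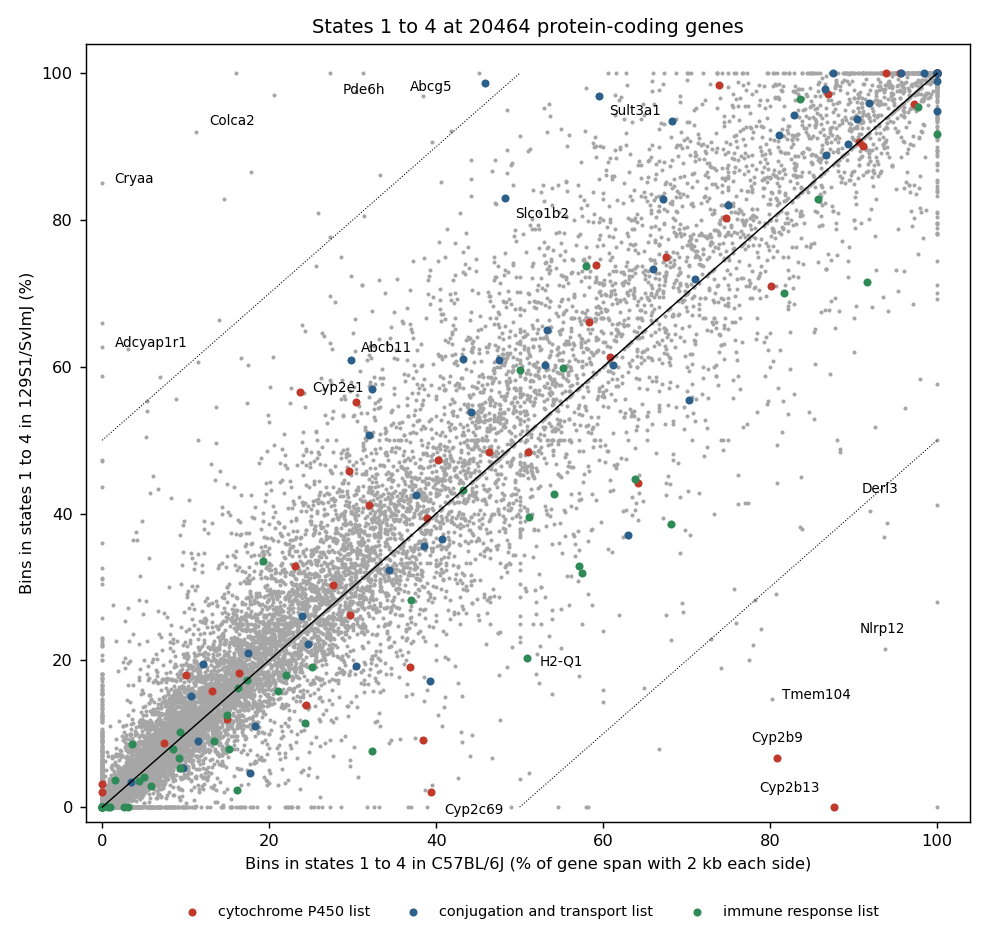
Percentage of bins in states 1 to 4 at 20464 protein-coding genes (span with 2 kb each side) in C57BL/6J (x axis) and 129S1/SvImJ (y axis), with 3 gene lists coloured, the line of equality and dotted lines at 50 points. Cyp2b13 (87.7% and 0%) and Cyp2b9 (80.8% and 6.73%) lie at the lower right, and Abcg5 (45.9% and 98.6%) at the upper left.

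Among cytochrome P450 genes, the oxidising enzymes of drug, steroid and fatty acid metabolism, 7 of 49 differed in at least 50% of bins (14.3% of the list, against 2.60% of all genes), with a median of 21.7% (14.3% over all genes). The median was close to that of the ubiquitous genes (23.4%) and hepatocyte markers (21%). The share in states 1 to 4 was higher in 129S1/SvImJ in 24 of the 49 genes and in C57BL/6J in 13 (49.0% and 26.5%, against 37.5% and 24% over all genes). Besides the Cyp2b pair the genes past 50% of bins differing were Cyp2c69, Cyp2c40, Cyp2c37, Cyp2e1 and, at exactly 50%, Cyp2d9. Cyp2c69 had 39.4% of bins in states 1 to 4 in C57BL/6J and 2.07% in 129S1/SvImJ, and Cyp2c40 38.4% and 9.20%. Cyp2e1, which oxidises ethanol, was higher in 129S1/SvImJ, with 23.7% and 56.6%, while its start bin was state 1 in both strains. In C57BL/6J state 5 was the commonest along Cyp2e1, at 32.9% of bins, and in 129S1/SvImJ state 1, also at 32.9%. Not all P450 genes differed: Cyp7a1, the rate-limiting enzyme of bile acid synthesis, Cyp2a4 and Cyp2a5 differed in 8.45%, 3.28% and 4.92% of bins and were at 100% in states 1 to 4 in both strains. Genes of the Cyp2c and Cyp2b groups are close copies, and how reads were shared between them is not given.

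Of 52 conjugation and transport genes, 4 differed in at least 50% of bins (7.69%, against 2.60% of all genes), with a median of 22.2%. The ubiquitous genes had 5.56% (1 of 18) and a median of 23.4%, and the hepatocyte markers 5.26% (1 of 19) and 21.0%. At least 30 points higher in 129S1/SvImJ were 4 of the 52, and in C57BL/6J 0 (0.845% and 0.430% of all genes). Abcg5, a subunit of the sterol transporter into bile, had 45.9% of bins in states 1 to 4 in C57BL/6J and 98.6% in 129S1/SvImJ, and the other 7 strains 24% to 67.1%. Abcb11, the bile salt export pump, had 29.8% and 61.0%, Slco1b2, an uptake carrier of organic anions, 48.2% and 83.1%, and Sult3a1, a sulfotransferase, 59.5% and 96.9%. Ugt1a1, which conjugates bilirubin, and Ugt2b1 differed in 56.5% and 51.4% of bins. The share in states 1 to 4 was higher in 129S1/SvImJ in 31 of the 52 genes and in C57BL/6J in 15 (59.6% and 28.8%, against 37.5% and 24% over all genes). Both shares were above those of all genes, since only 6 of the 52 were equal against 7879 of 20464.

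Other metabolic lists also had more genes higher in 129S1/SvImJ, as did all genes together and the ubiquitous genes (66.7% against 16.7%). Of 40 glucose and amino acid genes, 25 had the higher share in 129S1/SvImJ and 2 in C57BL/6J (62.5% and 5.00%, against 37.5% and 24% over all genes). Glul, the glutamine synthetase of pericentral hepatocytes, had 61.4% in C57BL/6J and 94.3% in 129S1/SvImJ. Sds, a serine-degrading enzyme, had 84.5% and 100%. Of 55 lipid and sterol genes, 28 were higher in 129S1/SvImJ and 12 in C57BL/6J. Apoa4, the cholesterol synthesis gene Hmgcs1 and the elongase Elovl3 differed in at least 50% of bins. These 3 made up 5.45% of the list, against 2.60% of all genes, 5.56% of the ubiquitous genes and 5.26% of the hepatocyte markers. Hmgcs1 was higher in C57BL/6J, with 64.0% against 41.4%. Of 53 complement, coagulation and acute phase genes, 30 and 10 were higher in 129S1/SvImJ and C57BL/6J. Hc, encoding complement C5, had 27.3% in C57BL/6J and 63.3% in 129S1/SvImJ, and C8b 55.7% and 90.1%. F11, Serpina1d and Serpina1e differed in 51.6%, 55.6% and 54.9% of bins. Of 43 transcription factor and clock genes, 28 were higher in 129S1/SvImJ and 6 in C57BL/6J, and the clock gene Per1 had 62.1% in C57BL/6J and 96.8% in 129S1/SvImJ.

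Immune response genes had the opposite order. Of 56 genes, 32 had the higher share in C57BL/6J and 8 in 129S1/SvImJ (57.1% and 14.3%), while over all genes 129S1/SvImJ was higher more often. Their mean share was 26.6% in C57BL/6J, 22.3% in 129S1/SvImJ and 17.0% to 24.5% in the other 7 strains, so C57BL/6J ranked the highest. Genes of antigen presentation were among them. H2-K1, a classical class I heavy chain, had 68.2% in C57BL/6J and 38.6% in 129S1/SvImJ. Tap1, the peptide transporter that loads class I molecules, had 57.1% and 32.9%, and Psmb9, an immunoproteasome subunit, 63.8% and 44.7%. Cd74, the invariant chain of class II molecules, had 32.3% and 7.69%, and H2-Q1 50.8% and 20.3%. Iigp1 and Irf7 went the other way, with 83.6% and 96.6%, and 57.9% and 73.7%. Oas1a and Oas1g, antiviral enzymes, differed in 72.7% and 69.6% of bins with none in states 1 to 4, and the GTPase gene Irgm2 differed in 66.7%. H2-K1, Tap1, Psmb9, Cd74, Iigp1 and Irf7 lie outside the naming rule and were chosen after their values were seen. The 15 Kupffer cell and leukocyte markers, scored over gene spans, had a mean of 7.80% in C57BL/6J and 7.39% in 129S1/SvImJ, with 12 of the 15 equal; the part of other cell types in the immune difference was not tested.

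The remaining lists had medians of 9.97% (known alleles) to 23.8% (major urinary proteins), and the ubiquitous genes 23.4%. Of 19 hepatocyte markers only Cyp2e1 passed 50%, and the mean share in states 1 to 4 was 88.2% in C57BL/6J and 93.1% in 129S1/SvImJ. Apoa2 differed in 0% of bins. Of 21 major urinary protein genes, which encode secreted pheromone carriers, 18 had equal shares. Mup6 had 77.5% in C57BL/6J and 20% in 129S1/SvImJ, and Mup5 differed in 51.6% of bins; these genes are near-identical copies. Of 18 ubiquitous genes 12 were higher in 129S1/SvImJ and 3 in C57BL/6J, and Tuba1b, an alpha tubulin gene, differed in 51.4% of bins. No member of the lists of developmental regulators (20 genes), endothelial markers (14) or stellate and bile duct markers (14) differed in at least 50%; their highest were Nkx2-1 at 32.6%, Cldn5 at 39.3% and Sox9 at 43.8%. Cd3e, a T cell marker, differed in 77.6% of bins, nearly all by 13/14 exchanges. Of 26 genes with known alleles in laboratory strains, H60b alone passed 50%, at 54.1%, and the median was 9.97%. Nnt, deleted in part in C57BL/6J, differed in 10.3% of bins, and Casp4, an inflammatory caspase known to be defective in 129S1/SvImJ, in 0.625%.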

How the data were processed

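ChIP-seq libraries of 4 histone marks and input from hepatocytes were made by the authors, who deposited 1 segmentation per strain; the labels and file headers give no read counts. Each deposited file holds 1 strain's states, per the file headers, and column 4, the state number, is a category that was used as deposited (unit: other). Per the submitters' processing notes, FastQC 0.11.5 and MACS 1.4.2 were used and the build was mm10; the aligner, the segmentation tool and the marks of each state are not given in the sources used here. mm10 is the assembly of C57BL/6J itself; any effect of placing 129S1/SvImJ reads on it was not tested.

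Intervals were written as states of 200-bp bins in Python 3.11.15 (pandas 2.3.3, numpy 2.4.6) and plotted in matplotlib 3.10.9, with intervals from scipy 1.17.1. Genes and starts came from RefSeq tables on GRCm38.p6, whose primary chromosomes are those of mm10; the start farthest upstream was used for the 16457 of 20665 autosomal protein-coding genes that have one. Named genes are the 12 with most bins differing, the 12 farthest apart each way in states 1 to 4, those in the 10 longest clusters counted with and without 13/14 exchanges, and list members with 50% of bins differing or 30 points in states 1 to 4, or else the list's 3 highest. Further genes, named to show list members without a difference or starts, were chosen after their values were seen. The members and the 15 gene lists were chosen with earlier results of these data known. In 1000000 simulated bins made with known answers, 200 of 200 planted clusters were found and a planted kappa of 0.7 came out at 0.700. The planted clusters filled whole windows with differing bins, and no bin differed outside them. The simulation therefore checks the code and not how well clusters are found in these data. State 14 blocks, start bins and promoters were examined only once other values were known. The alternatives covered bin size, border tolerance, merged states, marked bins, chromosome X, cluster windows and thresholds, gene spans and leaving out each other strain.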

Additional observations from a re-analysis of the deposited data

Results flagged for a closer look

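In 40 sets of 8 or 9 strain values (14 state coverages, the kappas of C57BL/6J and of 129S1/SvImJ with the other strains, and the 24 genes farthest apart in states 1 to 4), a strain was looked for whose gap to its neighbour was a large share of the whole range (above Dixon's 95% critical value). Chance gives about 1 in 20 such sets, or 2.00 of 40, where sets are not chosen by their values. The 24 genes had been chosen for the difference between this pair, and the pair itself for its kappa. That expectation therefore does not hold for the genes or for the kappas. There were 4 such sets, all at genes, and the count is a description. At Colca2, 129S1/SvImJ had 91.9% of bins in states 1 to 4, a gap of 0.737 of the range. At Cyp2b9, 129S1/SvImJ had 6.73%, a gap of 0.613. At Cphx2, C57BL/6J had 93.7%, a gap of 0.720, and at Derl3 it had 100%, a gap of 0.519. No state coverage and neither set of kappas held such a strain.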

How the results depend on the processing

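No paired analysis was possible because each segmentation pools the mice of its strain and no value per mouse was analysed here. The values are descriptions without a threshold of significance, and read depth, which is unknown, limits them in a way that cannot be stated. The percentage of bins differing (11.9%) was 11.1% with a match allowed within 1 bin, 5.87% with states 13 and 14 merged, 11.5% in 1000-bp bins, 11.8% with segments of 1 bin absorbed, 42.9% over marked bins and 11.3% with chromosome X. Kappa (0.699) was 0.751 with 13 and 14 merged, 0.704 in 1000-bp bins, 0.698 with segments of 1 bin absorbed, 0.461 over marked bins and 0.748 with X. The pair kept the highest kappa of the 36 when 13 and 14 were merged, in 1000-bp bins, over marked bins and with X; by plain agreement it was the highest with 13 and 14 merged (94.13%) and over marked bins (57.06%), and behind C57BL/6J and DBA/2J in 1000-bp bins and with X. The share of 13/14 exchanges (50.7%) was 50.6% in 1000-bp bins, and their share with state 13 in 129S1/SvImJ (66.1%) was 66.5% there. Differences near a border were 6.69% within 1 bin and 13.3% within 2. The 6764 clusters became 21755 with 5-kb windows, 1477 with 20-kb windows, 13309 at 40% and 3161 at 60% of bins, and 2929 without 13/14 exchanges. The window median (12.3%) was 12.0% in 500-kb and 12.4% in 2-Mb windows and 45.8% over marked bins. The 532 genes became 3035 at 30% of bins, 338 with 5 kb added and 250 without 13/14 exchanges. The 46 genes 50 points apart in states 1 to 4 became 261 at 30 points, 21 with 5 kb added and 8 with states 1 to 3 alone, where state 4 no longer counts. With 1 other strain left out and 4 of 6 required, 38.1% to 39.3% of differing bins sided with C57BL/6J and 32.6% to 34.1% with 129S1/SvImJ.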

Other observations

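The 76 starts in state 4 in C57BL/6J and state 14 in 129S1/SvImJ included genes known from blood cells: the T and natural killer cell signalling genes Zap70, Ptpn22, Hcst and Lime1 and the myeloid cell genes Fcgr4, Hk3, Oscar, Igsf6 and Lilra5. The reverse group held Lck, Csf2ra, Ccl6 and, from state 13 to state 4, Mpo. These genes were chosen after their values were seen, and no list was tested. The 76 also held other genes, such as Casq1, Krt79 and Atp4a. The share of blood cell genes among all starts was not computed, so no excess of them can be read from these names. None of the 96 and none of the 62 starts belonged to the Kupffer cell and leukocyte marker list. Only 0.583% and 0.377% of all starts were in these groups, so a list this short would seldom hold one. The absence therefore decides nothing about cell types. The 6 such markers scored at their starts above were in states 13 or 14 there. Ptprc, Cd5l, Timd4 and Clec4f were state 14 in both strains, and Marco and Cd3e state 13 in C57BL/6J and 14 in 129S1/SvImJ. Within 1 kb of the start Clec4f had 18.2% of bins in states 1 to 4 in C57BL/6J and 0% in 129S1/SvImJ, the others 0% in both, and the part of blood cells in these starts was not tested.

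Some stretches were 1 unbroken state 14 segment of at least 10 kb in one strain with at least 80% of bins in states 1 to 9 in the other. There were 23 with state 14 in C57BL/6J and 11 with state 14 in 129S1/SvImJ. Those in Plekha5 (11.2 kb), Elavl1 (13.6 kb) and Adamts7 (10 kb) were mostly state 14 in all 7 other strains as in C57BL/6J, and a 20-kb stretch in St3gal4 was mostly state 14 in all 7 as in 129S1/SvImJ. The 71.0-kb segment at Cyp2b9 and a 10-kb segment at Pik3ap1, the latter state 14 in C57BL/6J, were mostly state 14 in none of the 7. This search was added after the data had been seen.

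On chromosome X, outside the autosomes compared, 2.78% of bins differed and kappa was 0.863. Exchanges of states 4 and 14 there had state 4 in 129S1/SvImJ in 24.8%, against 53.2% to 64.9% on the autosomes, and exchanges of 2 and 6 had state 2 in 129S1/SvImJ in 43.8%, against 65.9% to 76.1%. Exchanges of 1 and 2 on X ran as on the autosomes, with state 1 in 129S1/SvImJ in 86.9%.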
